A study of Mus musculus with 8 samples.

Results

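The genes described here encode the proteins of the cytosolic ribosome in the mouse heart. They were chosen by name and annotation, as the protein-coding genes whose symbol starts with Rpl, Rps, Rplp or is Rpsa, without the Rps6k kinases, Rps27a and symbols with -ps. The rule found 85 genes of the 39056 listed in the count table. Of these, 46 encode proteins of the large 60S subunit, 30 encode proteins of the small 40S subunit and 8 are paralogs of such genes. The remaining gene, Rps19bp1, is taken in by its name and encodes a nucleolar protein that binds Rps19. Hearts of male HVCN1-/- mice were compared with hearts of male wild-type (WT) mice on a C57BL/6 background, both 3 months old, with 4 hearts in each group. HVCN1, also called Hv1, is a voltage-gated proton channel, and its gene is knocked out in the HVCN1 null mice. Each heart gave 1 poly-A RNA-seq library. The spread between libraries therefore holds differences between animals and those of tissue and library preparation, which cannot be told apart. Null hearts are numbered 1 to 4 and WT hearts 5 to 8.

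Ribosomal proteins are made in the cytosol, imported into the nucleolus and built onto ribosomal RNA in nearly equal numbers. Their mRNAs are short and abundant, and many begin with a run of pyrimidines (a TOP sequence) through which mTORC1 and LARP1 control their translation. Most have many processed pseudogenes, which are copies of the mRNA inserted elsewhere in the genome. Striated muscle also makes Rpl3l, a relative of Rpl3 that can take its place in the ribosome.

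The libraries held 25851255 to 38874640 counts, and the ribosomal protein genes took between 1.21% and 1.94% of them. Hvcn1 itself had 6, 6, 1 and 3 counts in null hearts 1 to 4, and 102, 49, 99 and 68 counts in WT hearts 5 to 8. The 4 smooth muscle markers, whose part in the results was not tested, summed to 271 to 522 CPM in null hearts and 165 to 240 CPM in WT hearts, without overlap. Of these 4, edgeR called 1, where it called 1.14% of all tested genes. The summed markers of each other cell type examined overlapped between groups. All 8 cardiomyocyte markers were kept by the filter on low counts, and their summed level was between 58235 and 74960 CPM in every heart, where CPM are counts scaled to a common library size. The 6 atrial markers summed to 325, 4525, 3676 and 343 CPM in null hearts 1 to 4. In WT hearts 5 to 8 they summed to 3282, 147, 8364 and 107 CPM. Their level thus varied widely within both groups, and its part in the results was not tested. In heart tissue, fewer cells of a type and less RNA per cell cannot be told apart.

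No ribosomal protein gene was a DEG in HVCN1 null hearts by edgeR, while DESeq2 called Rps2. Of the 85 genes, 82 were kept by the filter on low counts and tested. At an adjusted p under 0.05 in edgeR's quasi-likelihood test, 0 of the 82 were called, where 1.14% of all 14796 tested genes were. At an unadjusted p under 0.05 there were 5 of 82, where 11.0% of all tested genes were. That call by DESeq2 was 1 of the 82, where it called 3.15% of all tested genes. The log2 fold change (null over WT) was negative for 67 genes and positive for 15, with a median of -0.06, and the median over all tested genes was -0.01. It was within 0.25 of zero for 76 of the 82 genes, and the median standard error was 0.15.

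The median log2 fold change was -0.07 over the 45 tested genes of the 60S subunit, of which 36 were negative, and -0.08 over the 30 genes of the 40S subunit, of which 27 were negative. With WT heart 5 left out both turned, to a median of 0.07 with 37 of 45 genes positive for the 60S subunit and 0.08 with 23 of 30 positive for the 40S subunit. The genes with an unadjusted p under 0.05 were Rps2, Rps18, Rps7 and Rpsa of the 40S subunit, 13.3% of its 30 genes, and Rplp0 of the 60S subunit, 2.22% of its 45, beside 11.0% of all tested genes. The difference between the subunits was not tested.

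**Figure D1:**
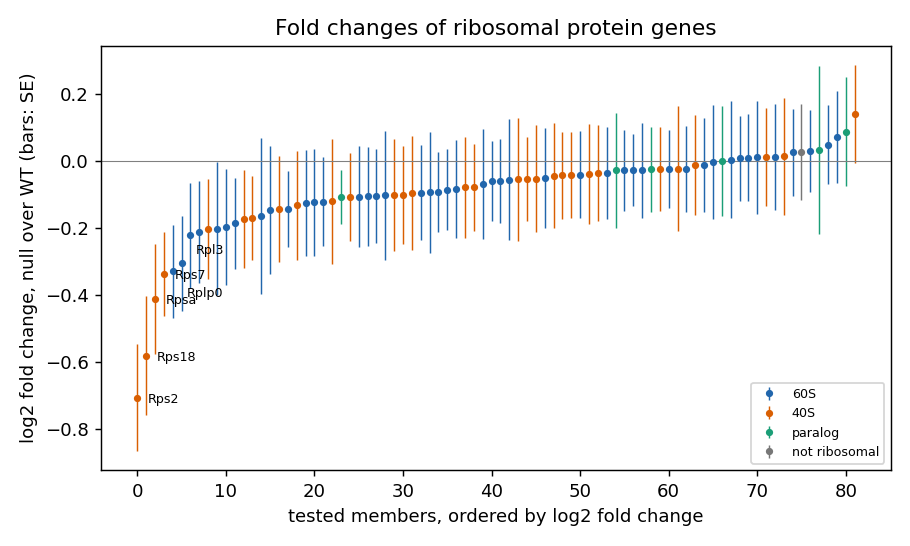
Log2 fold change (null over WT) of the 82 tested ribosomal protein genes, ordered by size and coloured by subunit, with bars of 1 standard error. Rps2 at -0.71 and Rps18 at -0.58 lie below the rest, and 76 genes lie within 0.25 of zero.

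The ribosomal protein genes varied together between hearts, and 1 WT heart stood apart. Their summed level was 11815, 13350, 15566 and 15007 CPM in null hearts 1 to 4. It was 19089 CPM in WT heart 5, and 14632, 12926 and 13758 CPM in WT hearts 6 to 8. Null hearts averaged 13935 ± 1698 CPM (SD, n = 4) and WT hearts 15101 ± 2749 CPM (SD, n = 4), and the groups overlapped. WT heart 5 had the highest level of all hearts for 75 of the 82 genes, and null heart 1 the lowest for 57. Without WT heart 5, the WT mean was 13772 ± 853 CPM (SD, n = 3), the median log2 fold change was 0.07, and 65 of the 82 genes were positive. The direction of the group as a whole therefore turned when that heart was left out. Without null heart 1 the median log2 fold change was -0.0006, beside -0.06 with all hearts. The log2 ratio of the summed level was then -0.045, beside -0.12 with all hearts.

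**Figure D2:**
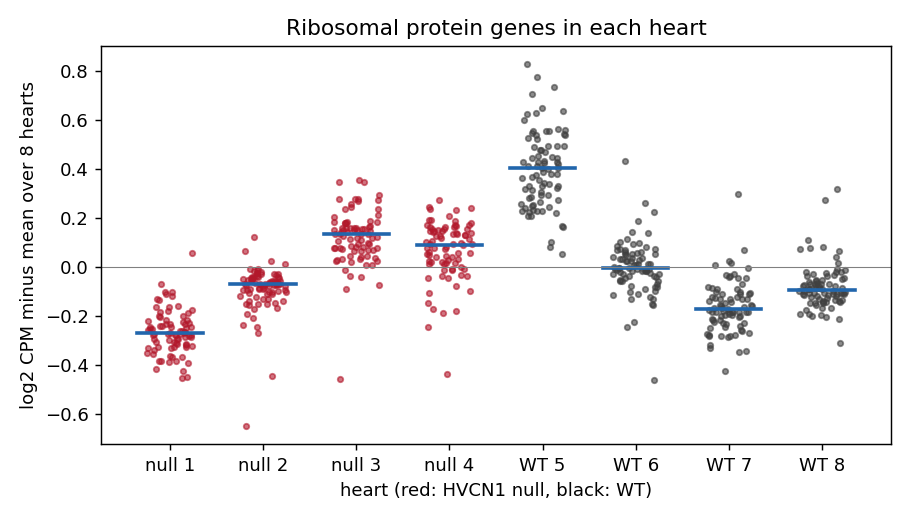
Log2 CPM of each of the 82 tested ribosomal protein genes in each heart, minus that gene's mean over the 8 hearts, with the median of the genes as a blue line. The median is 0.40 in WT heart 5 and -0.27 in null heart 1, and the other hearts lie between.

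All 82 genes were above the mean of the other WT hearts in WT heart 5, by 0.03 to 1.04 on the log2 scale with a median of 0.44. The median was 0.58 for the 28 ribosomal protein genes with an mRNA under 600 bases, 0.43 for the 33 from 600 to under 1000 bases, 0.39 for the 17 from 1000 to under 2000 bases and 0.44 for the 4 longer ones. Other coding genes above 20 CPM had a median of 0.37 under 600 bases (67 genes) and 0.25 from 600 to under 1000 bases (301 genes). Their median was 0.09 from 1000 to under 2000 bases (1127 genes) and -0.12 from 2000 bases (4322 genes). The 7 erythroid markers summed to 15234 CPM in WT heart 5, 3020 to 5039 CPM in the other WT hearts and 1292 to 8394 CPM in null hearts, and none of the 7 was at 0 in all hearts. The 10 macrophage markers summed to 558 CPM in WT heart 5, 381 to 518 CPM in the other WT hearts and 321 to 416 CPM in null hearts. The part of mRNA length and of these cells in the level of WT heart 5 was not tested.

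Rps2, a 40S protein near the entry of the mRNA channel, had the lowest fold change. Its level was 346, 281, 443 and 325 CPM in null hearts 1 to 4, and 668, 596, 463 and 550 CPM in WT hearts 5 to 8. Every null heart was below every WT heart. No other ribosomal protein gene was without overlap, so that 1 of 82 was, where 7.06% of all tested genes were in either direction and 3.45% were lower in every null heart. Null hearts averaged 349 ± 68.4 CPM (SD, n = 4) and WT hearts 569 ± 86.0 CPM (SD, n = 4), so that null hearts held 61.3% of the WT level. The log2 fold change was -0.71 ± 0.16 (SE), with an edgeR adjusted p of 0.0788. A two-sided exact permutation test of the mean CPM gave p = 0.0286, the smallest that 70 assignments allow, without adjustment for the number of genes. Any gene without overlap between the groups has this p, so it adds nothing to the lack of overlap. Rps2 was called by DESeq2 (adjusted p 0.000692), without the filter on low counts (edgeR adjusted p 0.0499) and without null heart 3 (edgeR adjusted p 0.0448). Without WT heart 5 its log2 fold change was -0.61 ± 0.16 (SE), with an edgeR adjusted p of 0.185.

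Rpsa, the laminin receptor homolog at the head of the 40S subunit, came close to this pattern. It was at 307, 282, 435 and 324 CPM in null hearts 1 to 4, and at 558, 449, 391 and 395 CPM in WT hearts 5 to 8. Only null heart 3 reached into the WT range. Its log2 fold change was -0.41 ± 0.16 (SE), with an edgeR adjusted p of 0.371.

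Rplp0 encodes the base of the 60S stalk that recruits elongation factors. Its level was 433, 482, 566 and 518 CPM in null hearts 1 to 4, and 769, 634, 527 and 581.9 CPM in WT hearts 5 to 8. Null heart 3 again lay above the lowest WT heart. The log2 fold change was -0.33 ± 0.14 (SE), with an edgeR adjusted p of 0.409, and -0.21 without WT heart 5. Rplp0 lies 6.65 Mb from Hvcn1 on chromosome 5. The other ribosomal protein genes within 20 Mb of Hvcn1 were Rpl6 at 1.002 Mb, with a log2 fold change of -0.09 ± 0.12 (SE), and Rpl5 at 14.3 Mb, with -0.19 ± 0.14 (SE), and edgeR called neither.

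Rpl3, a core protein of the 60S subunit, was at 81.0, 99.1, 101 and 104 CPM in null hearts 1 to 4, and at 144, 107, 130 and 94.4 CPM in WT hearts 5 to 8. The groups overlapped, and the log2 fold change was -0.31 ± 0.14 (SE), with an edgeR adjusted p of 0.469, and -0.19 without WT heart 5. The other genes among the 10 with the smallest p (Rpl32, Rpl12, Rpl5 and Rps3a1) had log2 fold changes between -0.22 and -0.17, and without WT heart 5 between -0.07 and -0.02.

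**Figure D3:**
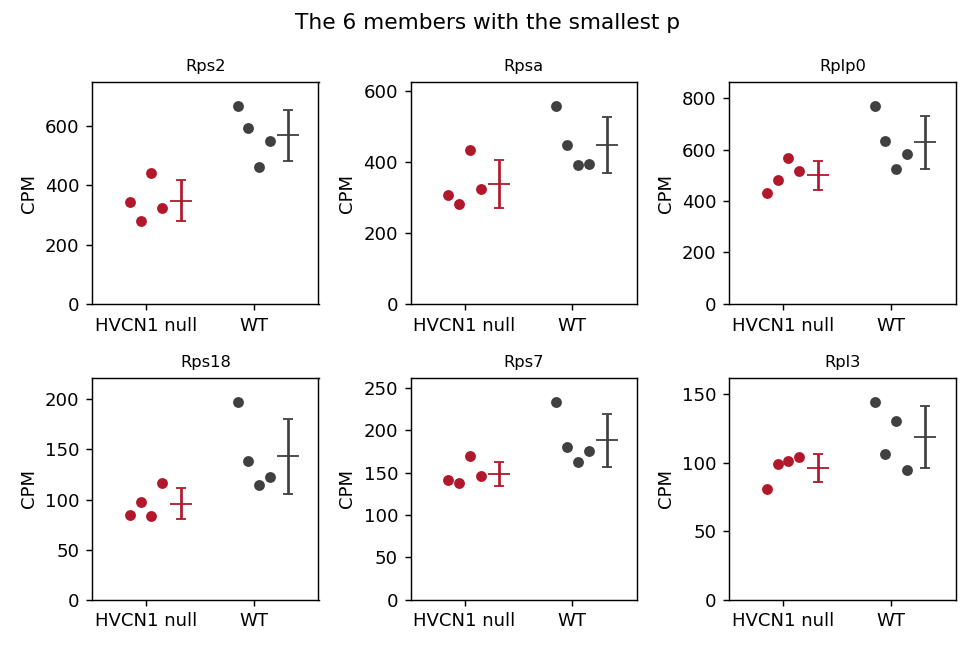
CPM of the 6 ribosomal protein genes with the smallest p, as 1 point per heart with the mean and SD of the 4 hearts beside it, on axes that start at 0. For Rps2 the null hearts lie between 281 and 443 CPM and the WT hearts between 463 and 668 CPM, and for the other genes at least 1 null heart reaches the WT range.

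Because most of the genes were highest in WT heart 5 and lowest in null heart 1, each was also taken as a share of the summed ribosomal protein level of its heart, a scaling chosen after the data were seen. Then 9 of the 82 genes did not overlap between groups, where 4.70% of all tested genes did not under the same scaling. With TMM scaling it was 1 of 82, beside 7.06% of all tested genes. Dividing by their own sum takes out the variation these genes share between hearts, but not that of other genes. The count and the share over all genes are therefore not on like terms, and an excess was not tested. Rps2 made up 2.51% ± 0.43 of the sum in null hearts and 3.79% ± 0.29 in WT hearts (SD, n = 4 each). Rps18, Rpsa, Rplp0 and Rps7 were also lower in every null heart, and Rpl18, Rpl21, Rpl29 and Rps19bp1 were higher. A share also rises where other shares fall. In the main edgeR fit Rpl18, Rpl21, Rpl29 and Rps19bp1 had log2 fold changes between 0.02 and 0.07, and their CPM overlapped between groups. In edgeR with this scaling, 0 of the 82 were called, and Rps2 had an adjusted p of 0.207.

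Rps18 and Rps7, of the head and body of the 40S subunit, have near-identical copies whose counts moved the other way. Copies were taken as genes outside the rule whose transcript matched a ribosomal protein mRNA at 95% identity or more over at least 80% of its length. There were 547 of them for 80 of the 85 genes, 537 of them processed pseudogenes. Of the 125 copies that were tested, 5 were DEGs, all higher in null hearts, where 1.14% of all tested genes were called. They were Gm10260 (a copy of Rps18), Gm6472 (Rps7), Rps15a-ps7 (Rps15a), Rps3a2 (Rps3a1) and Gm14513 (Rps3). A stretch of the coding sequence of Rps18 and of Rps7 is shown with the same stretch of its copy, since reads can be told apart only where they differ. Capitals mark the bases that differ, and all are on GRCm38, as given by GENCODE M21, at chr17:33952233-33952292 and chr12:28635595-28635654 (minus strand) for the genes and chr13:97760218-97760277 and chrX:152910061-152910120 (minus strand) for the copies.
Rps18: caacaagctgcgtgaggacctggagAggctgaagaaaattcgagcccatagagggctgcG
Gm10260: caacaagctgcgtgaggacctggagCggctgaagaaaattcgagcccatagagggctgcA
Rps7: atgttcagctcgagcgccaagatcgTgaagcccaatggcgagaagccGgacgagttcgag
Gm6472: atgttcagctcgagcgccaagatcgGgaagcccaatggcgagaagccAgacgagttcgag

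Gm10260 differs from Rps18 at 5 of 545 aligned bases, and 56.6% of its 50-base stretches, the length of 1 read, also occur in an Rps18 transcript. It had 257, 392, 638 and 460 counts in null hearts 1 to 4, and 2, 1, 1 and 4 counts in WT hearts 5 to 8. Nearly all counts on Gm10260 thus came from null hearts.

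Rps18 itself was at 84.4, 98.0, 83.9 and 117 CPM in null hearts 1 to 4, and at 198, 138, 115 and 122 CPM in WT hearts 5 to 8. Only null heart 4 lay above the lowest WT heart, and the log2 fold change was -0.58 ± 0.18 (SE), with an edgeR adjusted p of 0.211, and -0.38 without WT heart 5. With its copies added it was -0.38 ± 0.17 (SE), with an edgeR adjusted p of 0.459.

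Gm6472 differs from Rps7 at 4 of 632 aligned bases, and 77.9% of its 50-base stretches also occur in an Rps7 transcript. It had 402, 1042, 374 and 1012 counts in null hearts 1 to 4, and 95, 50, 59 and 26 counts in WT hearts 5 to 8. Its level thus varied between null hearts, with hearts 2 and 4 above hearts 1 and 3.

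Rps7 was at 142, 138, 170 and 146 CPM in null hearts 1 to 4, and at 234, 181, 163 and 176 CPM in WT hearts 5 to 8. Only null heart 3 reached the WT range, and the log2 fold change was -0.34 ± 0.13 (SE), with an edgeR adjusted p of 0.335, and -0.21 without WT heart 5. With its copies added it was -0.16 ± 0.12 (SE), with an edgeR adjusted p of 0.759. Rps15a, whose copy Rps15a-ps7 had 127 to 159 counts in null hearts and 5 to 13 in WT hearts, went from -0.20 to -0.12. Rpl3 went from -0.31 to -0.21 ± 0.14 (SE) with its copies added, with an edgeR adjusted p of 0.694. The copies of Rpl3 summed to 7.93, 11.5, 2.43 and 11.4 CPM in null hearts 1 to 4. In WT hearts 5 to 8 they summed to 3.04, 1.64, 2.88 and 1.76 CPM. The fold change of Rps2, which has 26 copies that together hold 0.892% as many counts as it does, was -0.70 with its copies. Of the 50-base stretches of Gm14513, the called copy of Rps3, 0% also occur in an Rps3 transcript. How reads that fit both a gene and its copy were counted is not given in the sources used here, and its part in these values was not tested.

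**Figure D4:**
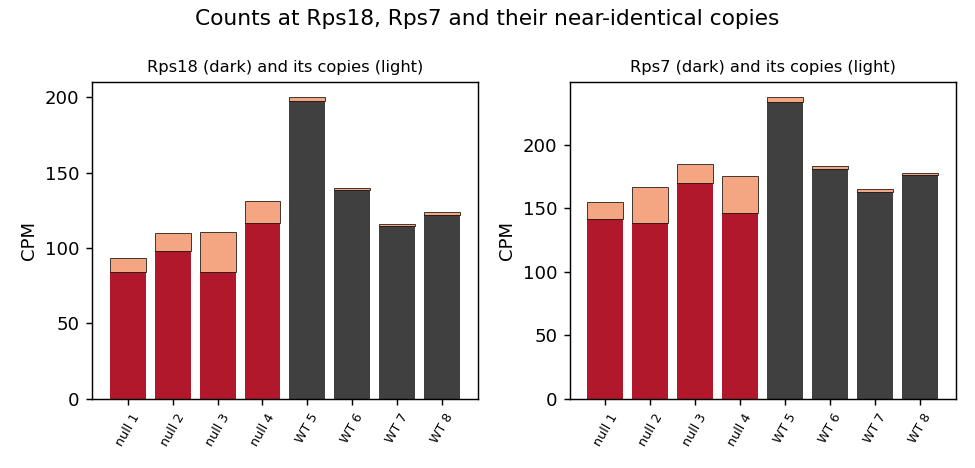
CPM of Rps18 and Rps7 in each heart (dark bars, red for HVCN1 null and black for WT) with the summed CPM of their near-identical copies on top (light bars), on axes that start at 0. The copies add 8.92 to 26.4 CPM to Rps18 in null hearts and 1.11 to 2.46 CPM in WT hearts.

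Levels per mRNA length, as CPM divided by the mRNA length in kilobases (RPKM), were compared between genes. Of the 82 tested genes, 76 were above 30 RPKM on the mean of the 8 hearts. The median was 205 RPKM for genes of the 60S subunit and 235 RPKM for genes of the 40S subunit. The highest was Rplp1, an acidic protein of the 60S stalk, at 790 ± 142 RPKM (SD, n = 8), followed by Rps15 at 531 ± 105, Rpl36 at 518 ± 105, Rps29 at 501 ± 80.03 and Rps2 at 460 ± 138 RPKM. The latter 4 differed by less than their spread between hearts.

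The lowest tested gene was Rpl13a at 6.14 ± 1.31 RPKM (SD, n = 8), and 29.4% of its exon bases lie in exons of the overlapping gene Gm45713 on the same strand. Rps19bp1 was at 7.95 ± 1.01, Rps27rt at 11.7 ± 3.29 and Rpl7l1 at 13.9 ± 0.993 RPKM. Rps15a was next at 20.2 ± 3.79 RPKM, with a level divided by an annotated mRNA of 5130 bases. Rpl24 had 56 counts over the 8 hearts and was not tested, and 47.0% of its exon bases lie in exons of Gm28037. The copies of Rpl24 held 1642 counts. Rpl39l had 29 counts in all and Rpl10l had 0, and neither was tested.

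**Figure D5:**
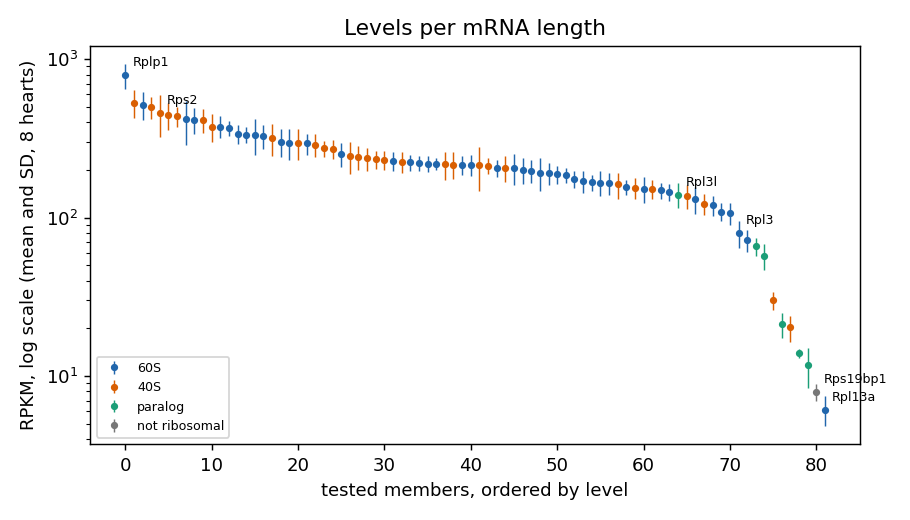
Mean level of the 82 tested ribosomal protein genes in RPKM, on a log axis, ordered from the highest to the lowest and coloured by subunit, with bars of 1 SD over the 8 hearts. Most genes lie between 100 and 600 RPKM, while most paralogs, Rps19bp1 and Rpl13a lie lower.

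Among the paralogs, Rpl3l exceeded its relative Rpl3. Rpl3l was at 158, 193, 242 and 167 CPM in null hearts 1 to 4, and at 197, 209, 141 and 229 CPM in WT hearts 5 to 8. The groups overlapped throughout, with a log2 fold change of -0.03 ± 0.17 (SE) and an edgeR adjusted p of 0.986. Per mRNA length, Rpl3l made up 65.7% ± 3.67 of Rpl3l plus Rpl3 in null hearts and 61.3% ± 8.47 in WT hearts (SD, n = 4 each). The difference of 4.46 percentage points was not past the threshold in a two-sided exact permutation test (p = 0.486), and it was 1.23 points without WT heart 7 and 7.51 points without WT heart 8.

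The other paralogs were the lesser form in every heart. Rpl36al made up 35.6% ± 1.15 of itself plus Rpl36a in null hearts and 35.6% ± 2.04 in WT hearts (SD, n = 4 each). Rps27l, induced by p53, made up 11.5% ± 1.89 of itself plus Rps27 in null hearts and 11.5% ± 0.874 in WT hearts. Rpl22l1 made up 9.71% ± 0.737 of itself plus Rpl22 in null hearts and 8.93% ± 1.10 in WT hearts. The shares were 6.99% and 7.06% for Rpl7l1, and 2.59% and 2.50% for Rps27rt. None of the 6 tested paralogs was called by edgeR, with adjusted p values from 0.754 upwards. Rps4x, whose paralog Rps4l is annotated as a pseudogene and was not a member, had a log2 fold change of -0.05 ± 0.13 (SE).

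The sequence around the annotated start of transcription is shown for the genes with the lowest fold changes and for Rpl3l, since TOP mRNAs begin with a pyrimidine run. Each stretch is from RefSeq on GRCm38.p6, with the start at base 16, and capitals mark the longest run of C and T of at least 5 bases that comes within 5 bases of the start.
Rps2, chr17:24720048-24720077, plus strand: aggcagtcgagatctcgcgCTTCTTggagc
Rps18, chr17:33955651-33955680, minus strand: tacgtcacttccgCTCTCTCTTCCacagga
Rps7, chr12:28635939-28635968, minus strand: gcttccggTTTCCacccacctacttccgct
Rpsa, chr9:120127751-120127780, plus strand: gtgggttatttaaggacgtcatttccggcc
Rplp0, chr5:115559452-115559481, plus strand: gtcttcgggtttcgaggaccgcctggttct
Rpl3l, chr17:24727811-24727840, plus strand: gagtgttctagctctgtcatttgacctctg

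Such a run, on the strand of the gene, was found at 48.7% of the 78 annotated starts of ribosomal protein genes, which belong to 66 of the 85 genes, and at 32.9% of all 32851 starts in the same table. A run is a match of letters near an annotated start and need not begin the mRNA. For Rps7 it ends before the start, and for Rps2 it begins after the start. In Rpsa, Rplp0 and Rpl3l no run came within 5 bases of the annotated start, though runs of at least 5 bases lie further away.

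edgeR also called none of the other genes of translation listed here, while DESeq2 called 1 of them, Eif3j1. DESeq2 called 3.15% of all tested genes. None of the 4 ribosomal proteins outside the rule was called by edgeR. Rack1, a scaffold on the 40S subunit, averaged 265 ± 19.4 CPM over null hearts (SD, n = 4) and 291 ± 50.4 CPM over WT hearts (SD, n = 4).

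edgeR called 0 of 9 elongation factors and regulators, 0 of 11 other TOP mRNAs, 0 of 34 initiation genes, 0 of 49 ribosome assembly genes and 0 of 15 genes of mTORC1 and LARP1, beside 1.14% of all tested genes. The median log2 fold changes of these lists lay between -0.01 and 0.03. Eef2, which moves the ribosome along the mRNA, averaged 1488 ± 168 CPM over null hearts (SD, n = 4) and 1411 ± 46.0 CPM over WT hearts (SD, n = 4). At an unadjusted p under 0.05 there were 2 of the 113 genes in these lists, Eif3j1 and Myc, beside 11.0% of all tested genes. Eif3j1, a subunit loosely bound to eIF3, was at 39.6, 42.9, 37.5 and 39.8 CPM in null hearts 1 to 4, and at 49.6, 52.9, 46.8 and 53.6 CPM in WT hearts 5 to 8. Every null heart was below every WT heart, as for 3.45% of all tested genes. The log2 fold change was -0.34 ± 0.08 (SE), with an edgeR adjusted p of 0.0900. Eif3j1 was named after its values were seen, as was Myc, a regulator of ribosome production. Myc had a log2 fold change of -0.75 ± 0.27 (SE) and an edgeR adjusted p of 0.298.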

How the data were processed

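RNA-seq was performed on 4 HVCN1 null and 4 WT mouse hearts. The deposited values are raw counts of reads per gene and heart, which the authors made with STAR and featureCounts from paired reads of 50 nt, per the submitters' processing notes and the study's methods. The notes name mm10 and GRCm38, the study's text names hg38, and the gene identifiers are mouse. Tool versions and the settings for strand and for reads that fit several places are not given in the sources used here. Exons of Rpl35, Rpl23a and 10 other members overlap a gene on the other strand. All columns of the table were mapped to a heart by its label.

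Gene positions, types and mRNA lengths came from GENCODE M21, which matched 38872 identifiers (99.5%). Counts were tested with edgeR 4.0.16 (quasi-likelihood test, TMM scaling, filterByExpr defaults) in R 4.3.3 over all 14796 kept genes, with Benjamini-Hochberg adjustment over all of them. DESeq2 1.42.0 and limma 3.58.1 (voom) were alternatives, and the scripts were tested on simulated data. CPM is relative to the TMM-scaled library size. RPKM divides it by the length of the shortest of the best-ranked annotated coding transcripts. Copies were found with BLAST+ 2.17.0. For single values, an exact permutation test (two-sided) ran through all 70 ways to assign 8 hearts to groups of 4. Depth was 25851255 to 38874640 counts, and replicates are separate animals, with TMM factors between 0.909 and 1.07.

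Members and gene lists were chosen with earlier results of these data known. Genes named singly were those called, the 10 smallest p values, the 5 highest and 5 lowest RPKM, paralogs with their parents, Rps19bp1, untested members, members within 20 Mb of Hvcn1, and called genes of the lists. Any other gene was picked once its values were known. Markers of 10 cell types were summed, and those not given with a result were T cell (3.25 to 6.91 CPM), B cell (12.0 to 41.5 CPM), endothelial (889 to 1145 CPM), fibroblast (900.2 to 1574 CPM) and adipocyte markers (0.155 to 32.0 CPM). No batch is given in the labels. Some values of single genes are not reported here.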

Additional observations from a re-analysis of the deposited data

Results flagged for a closer look

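In groups of 4 hearts, 1 heart lay far from the other 3 in 7 of the 78 groups examined, where chance flags about 1 in 20. The groups come from the same 8 hearts and largely from genes that varied together. They are therefore not independent, and an excess was not tested. The measure is the gap to the nearest heart over the range of the group. In WT hearts, heart 5 was the highest for Rpl5 (0.915), Rpl12 (0.866) and Rpl39 (0.839). Rpl5 was at 302 CPM in WT heart 5 and 204 to 213 CPM in the other WT hearts. Over all 82 tested ribosomal protein genes, 17 WT groups were past the limit, each with WT heart 5 highest, and 3 null groups were. In null hearts, heart 1 was the lowest for Rpl5 (0.833) and Rps27rt (0.849), and heart 3 was the highest for Rpl13a (0.882), at 7.75 CPM against 5.43 to 5.71 CPM. The share of Rpl22l1 in Rpl22l1 plus Rpl22 was lowest in null heart 4 (0.859), at 8.61% against 9.97% to 10.2%.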

How the results depend on the processing

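edgeR called no ribosomal protein gene with RLE size factors, unscaled libraries, scaling from other genes, mitochondrial genes left out, or CPM above 1 in at least 4 hearts, nor by limma voom, nor with copies added. DESeq2 and edgeR without the filter each called 1, Rps2, and leaving out 1 heart at a time gave 0 to 1. DESeq2 called 1 of the listed translation genes, Eif3j1, where edgeR called 0, beside 3.15% and 1.14% of all tested genes. The number of genes without overlap was 1, and 1 to 5 with 1 heart left out. It was 4 without null heart 3 and 5 without WT heart 7, where 9.60% and 11.3% of all tested genes did not overlap. Scaling to the summed ribosomal protein counts, added after seeing the data, gave 9, with a median log2 fold change of 0.05 beside 0.09 for all genes and 22 genes negative. The median was otherwise -0.06 to -0.03 with all hearts, and -0.14 to 0.07 with 1 left out. The summed level was lower in null hearts (log2 ratio -0.12) and 0.03 higher on that scale without WT heart 5. The share of Rpl3l was past the threshold under no alternative. The cause of these changes was not tested. No paired analysis was made, because the labels give no pairing of null hearts with WT hearts. With 4 hearts a group and a median standard error of 0.15, small fold changes could not be resolved. In the simulated data, over genes of all levels, edgeR recovered 9% of log2 changes of 0.5 and 74.5% of those of 1.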
